A study of Mus musculus with 12 samples.

Results

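The vanin gene family of the mouse, Vnn1 and Vnn3, was examined in bone marrow-derived macrophages (BMDMs) with and without cGAS, the cytosolic DNA sensor that makes the messenger cGAMP. Both family members were taken by name, 2 of the 38739 gene symbols in the deposited table. They had been chosen because Vnn3 differed between the genotypes with LPS in earlier results of these same data, so the values with LPS below are a description without a test. The 12 RNA-seq libraries formed 4 groups of 3, namely untreated (UT) wild-type (WT) cells, WT cells with LPS, UT cGAS-/- cells and cGAS-/- cells with LPS, all on the C57BL/6J background of the methods. LPS, the endotoxin of Gram-negative bacteria, was given at 100 ng/mL for 1 h according to the sample labels but at 150 ng/mL for 24 h according to the methods. Which of them applies was not tested. The cGAS-/- mice lack the gene in every cell, so the marrow from which the macrophages were grown lacked it too. The study calls its 3 samples a group technical replicates, and p-values therefore measure only the spread between these libraries.

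Vanins are pantetheinases, enzymes outside the cytosol that split pantetheine, a breakdown product of coenzyme A, into pantothenate (vitamin B5) and the aminothiol cysteamine. Pantothenate can be taken up again for coenzyme A synthesis, while cysteamine is oxidized to hypotaurine and taurine or acts on thiol redox balance. Vnn1 is known best from liver, kidney and gut epithelium, whereas mouse Vnn3 is known mainly from myeloid cells of blood and marrow.

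The pair lies side by side on chromosome 10 of GRCm39, on the plus strand. Vnn3 (ENSMUSG00000020010.9) spans 23727326 to 23746219 and Vnn1 (ENSMUSG00000037440.10) spans 23770586 to 23781241 in the GENCODE annotation, with 43.3 kb between their starts and 24.4 kb between the end of Vnn3 and the start of Vnn1. Each has 7 exons, and the coding length is 1500 bases in Vnn3 and 1536 bases in Vnn1. Exons 2, 3 and 4 are wholly coding and equally long in both genes, at 131, 193 and 292 bases. Identity between the genes was 78.6% in exon 2, 73.1% in exon 3 and 64.4% in exon 4. Exon 2, the most alike of these, is shown because it tells how far a short read from one vanin can be told from the other. It lies at chr10:23727805-23727935 in Vnn3 and chr10:23773191-23773321 in Vnn1, read 5′ to 3′ on the plus strand, and capitals mark the bases that differ.
Vnn3 exon 2: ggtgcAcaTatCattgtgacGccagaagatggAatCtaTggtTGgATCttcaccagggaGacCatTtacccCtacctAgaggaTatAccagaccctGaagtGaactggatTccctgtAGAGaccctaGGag
Vnn1 exon 2: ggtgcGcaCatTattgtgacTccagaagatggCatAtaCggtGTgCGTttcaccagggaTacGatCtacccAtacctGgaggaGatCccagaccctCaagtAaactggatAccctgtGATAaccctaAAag
Of these 131 bases, 103 were identical, and the differences are scattered over the whole exon. Over all annotated transcripts, the longest run of bases found in both genes was 13, and none of the 2347 runs of 31 bases in Vnn3 occurred among the 3563 of Vnn1. No stretch of 31 bases can thus come from either gene alike, which bears on the next result, in which one vanin was detected and the other stood near 0.

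Vnn3 was the vanin of these macrophages. Its level, in TPM (a share of all transcripts in a library, corrected for transcript length), was lowest in cGAS-/- UT, followed by WT UT, WT LPS and cGAS-/- LPS cells, and no sample of one group overlapped another group. That order without overlap held for 0.193% of the genes tested. For the pairs of groups compared below, the share was 5.31% to 18.4%. Nothing is read from these shares, since the gene was chosen on these data. In WT UT cells, Vnn3 stood at 1.06, 0.308 and 0.657 TPM (0.674 ± 0.374 TPM, SD, n = 3). In cGAS-/- UT cells, it was at 0.0927 and 0.113 TPM in replicates 1 and 2 and listed at 0 in replicate 3. These 3 samples were the lowest of all 12. With LPS, WT cells held 1.92, 4.26 and 1.97 TPM (2.72 ± 1.34 TPM, SD, n = 3). With LPS, cGAS-/- cells held 14.4, 13.6 and 13.6 TPM (13.9 ± 0.437 TPM, SD, n = 3). The cGAS-/- LPS samples were thus the highest and close to one another, while the WT LPS samples were spread by replicate 2, the highest of them. The gaps between neighbouring groups in this order were 0.196, 0.865 and 9.36 TPM, each between the nearest samples, and only the last was larger than the SD of both of its groups.

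**Figure D1:**
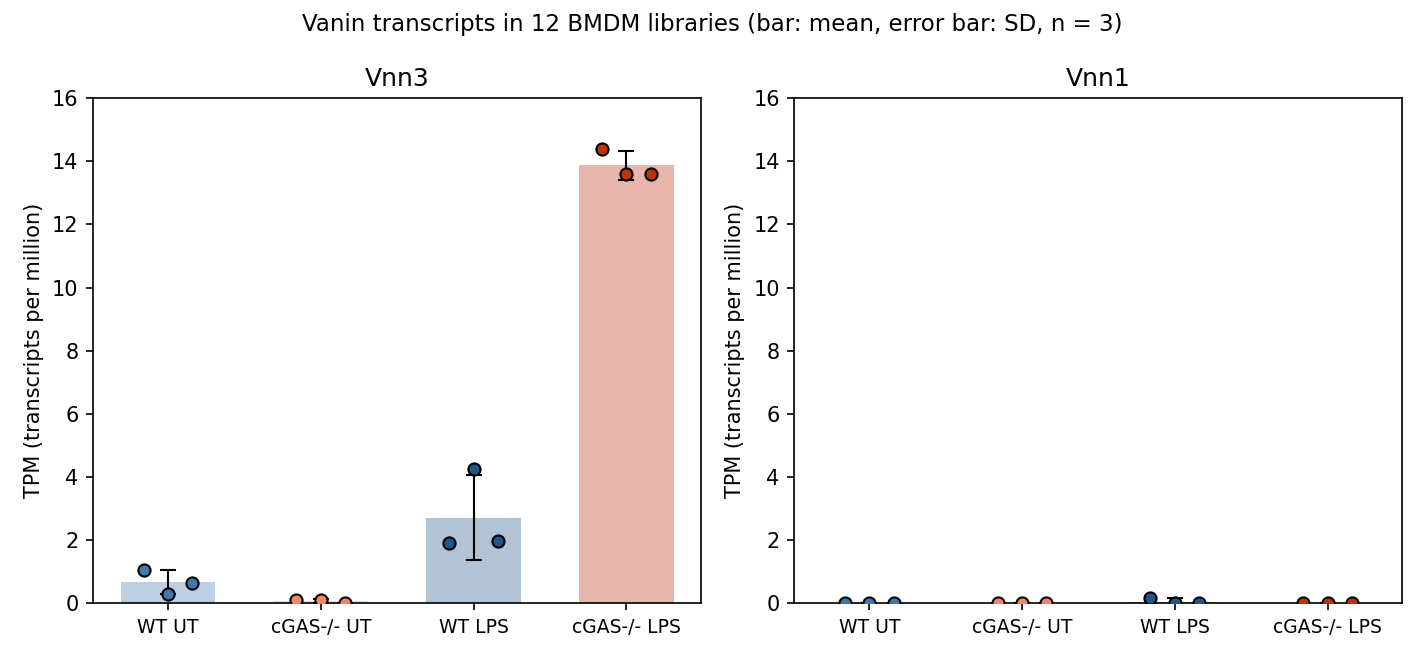
Level of Vnn3 (left) and Vnn1 (right) in TPM on the same linear axis for the 4 groups, with points for the 3 libraries of a group, bars for the mean and error bars for the SD. The 3 cGAS-/- LPS libraries sit between 13.6 and 14.4 TPM of Vnn3, above every other library, and Vnn1 is at 0 TPM in 11 of 12 libraries.

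Vnn1 stood near 0. It was listed at 0 TPM in 11 of the 12 samples and at 0.175 TPM in WT LPS replicate 1, under the level of Vnn3 in each LPS library. By its digits, the deposited value is read as a mean over 2 transcripts, which would be a sum of 0.349 TPM. The values of Vnn3 are read as those of 1 transcript. The number for Vnn1 rests on 1 value, and its annotation lists 8 transcripts, so other numbers are possible. TPM is per length, but means over unlike numbers of transcripts limit how far the levels of the 2 genes can be set side by side. The number of reads is unknown for these values, so no detection limit can be given, and a listed 0 does not show that the gene was silent. Markers of the tissues that Vnn1 is best known from were near 0 as well. The 8 liver and epithelial markers summed to at most 0.838 TPM in any sample, with Apoa1, Cps1 and Umod at 0 in all of them. Vnn1 stayed under the filter on low values, which asked for at least 1 in 3 or more samples after each sample was rescaled to a total of 1000000 (the listed TPM sum to less). On that scale Vnn3 passed with 8 samples, made up of 2 WT UT, 3 WT LPS and 3 cGAS-/- LPS samples. It was therefore among the 11887 genes tested, and Vnn1 was not.

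Among all genes tested, Vnn3 stood near the bottom in UT cells and in the upper part in cGAS-/- LPS cells, with the limit that values are averages over different numbers of transcripts. Of the genes tested, 97.4% had a higher mean TPM than Vnn3 in cGAS-/- UT cells, 84.4% in WT UT cells, 44.8% in WT LPS cells and 17.6% in cGAS-/- LPS cells. A level near 14 TPM is thus an upper-range level for a gene in these cells, whereas the UT levels lie near the floor of the table.

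In UT cells, the question is whether loss of cGAS alone goes with another Vnn3 level. The mean was 9.84 times higher in WT than in cGAS-/- UT cells, and the lowest WT sample was 2.73 times the highest cGAS-/- sample. On the log2(TPM + 1) scale, which understates changes of low genes, the difference was -0.62 (SE 0.25, 95% confidence interval -1.18 to -0.07). This difference did not pass the test across all genes (limma, adjusted p = 0.468, unadjusted p = 0.0296). The spread in that fit is shared with the LPS groups. With only the 6 UT samples, the adjusted p was 0.0963 (limma). Without a WT LPS replicate it was 0.0977 to 0.365, and without a cGAS-/- LPS replicate 0.597 to 0.609. An exact two-sided permutation test gave p = 0.1, the smallest value that 3 samples against 3 allow. All cGAS-/- UT samples lay under all WT UT samples, as they did for 18.4% of the genes tested, and 1.58% of the genes tested were called lower in this comparison against 0.252% called higher. The sign of the difference was the same under all 23 other settings, with values from -2.15 (pseudocount 0.1) to -0.16 (pseudocount 5). As these groups did not overlap, only the other scalings could have turned that sign. The adjusted p ran from 0.0255 to 1, and sample weights were the single setting with a call (difference -0.57).

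Some genes of other blood cells were also lower in cGAS-/- UT cells. Of the 10 neutrophil markers tested, Ngp, Ltf and Elane, all granule genes of immature neutrophils, were lower in cGAS-/- UT cells (limma, adjusted p under 0.05), 3 of 10 against the 1.58% of all genes. Ngp was at 24.1 to 32.3 TPM in WT UT cells and at 0.657 to 3.13 TPM in cGAS-/- UT cells, and Elane was at 0 in all cGAS-/- UT samples. The 13 neutrophil markers together summed to 177 to 254 TPM in WT UT and 87.2 to 169 TPM in cGAS-/- UT cells, and the 8 B cell markers to 67.5 to 99 TPM and 4.84 to 11.8 TPM. The 12 macrophage markers listed summed to 22906.8 to 36158.2 TPM over all samples, most of it Lyz2 at 15700.7 to 33425.8 TPM, and none was at 0 in all samples. Of them, Cx3cr1, a chemokine receptor gene, was called higher in cGAS-/- UT cells and none lower. C1qa, a complement gene, was at 1729.1 to 1763.5 TPM in WT UT and 732 to 831 TPM in cGAS-/- UT cells but was not called. In such bulk samples, fewer cells of a type and less RNA per cell cannot be told apart, and the part of these other cells in the Vnn3 level was not tested.

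With LPS, the order of the genotypes was the opposite one. The mean of Vnn3 was 5.11 times higher in cGAS-/- than in WT cells, and the lowest cGAS-/- sample was 3.19 times the highest WT sample. The difference was 2.06 on the log2(TPM + 1) scale (SE 0.25), and 66 of 11887 genes had a larger one. All 3 cGAS-/- samples lay above all WT samples, as they did for 12.6% of the genes tested; nothing is read from this, since the gene was chosen on this comparison. Markers of other cells were called in both directions here. Of the 10 neutrophil markers tested, 1 was higher in cGAS-/- cells with LPS, where 1.36% of all genes tested were called higher. This was Hp (haptoglobin), at 95.7 to 111 TPM in cGAS-/- and 16.8 to 30.4 TPM in WT cells. Lcn2 (lipocalin 2) was at 348 to 377 TPM and 49.1 to 126 TPM but was not called. Both are also LPS response genes of macrophages. The whole neutrophil list summed to 546 to 613 TPM in cGAS-/- LPS cells and 158 to 560 TPM in WT LPS cells, and Ngp, which marks immature neutrophils, was at 0.867 to 1.38 TPM and 2.21 to 9.9 TPM. Of the 4 B cell markers tested, Cd79a and Igkc were lower in cGAS-/- LPS cells, where 1.00% of all genes tested were called lower, and the B cell list summed to 3.02 to 8.08 TPM there against 30.3 to 40.5 TPM in WT LPS cells. Of the 12 macrophage markers tested, Lyz2 and Cx3cr1 were higher and 1, C1qa, was lower, against the same 1.36% and 1.00% of all genes. The part of these cells in the Vnn3 difference was not tested.

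Within each genotype, Vnn3 was higher with LPS. In WT cells, the mean with LPS was 4.04 times that in UT cells, and the difference was 1.12 on the log2(TPM + 1) scale (SE 0.25), with 500 genes showing a larger one. The WT groups did not overlap, as for 5.31% of the genes tested in this direction. In cGAS-/- cells, the mean with LPS was 203 times that in UT cells, a ratio that rests on UT values of at most 0.113 TPM, and the difference was 3.80 (SE 0.25), with 63 genes showing a larger one. Here too the groups did not overlap, as for 15.5% of the genes tested. The responses thus differed by 2.68 on the log2(TPM + 1) scale (SE 0.35) between the genotypes. Markers of several cell types moved with LPS as well. In cGAS-/- cells, 4 of the 10 neutrophil markers tested were higher with LPS (Camp, Lcn2, Mmp8 and Hp) and none was lower, while in WT cells 3 were higher and 3 lower. Of all genes tested, 4.76% were called higher and 9.06% lower with LPS in cGAS-/- cells, and 4.31% and 23.3% in WT cells. The neutrophil list summed to 87.2 to 169 TPM in cGAS-/- UT and 546 to 613 TPM in cGAS-/- LPS cells, against 177 to 254 TPM and 158 to 560 TPM in WT cells. Most of the sum in cGAS-/- LPS cells was Lcn2 and Hp, while S100a9, at 30.6 to 72.3 TPM in cGAS-/- UT and 17.6 to 26.8 TPM in cGAS-/- LPS cells, and Ltf, at 0.114 to 0.173 TPM and 0.03 to 0.0674 TPM, were not higher. Of the 12 macrophage markers tested, 4 were higher and 4 lower with LPS in cGAS-/- cells, and 2 were higher and 3 lower in WT cells. Of the 2 dendritic cell markers tested, Itgax and Xcr1, 1 was higher and 1 lower in each genotype. Of the 4 B cell markers tested, 1 was higher (Cd79a) and 1 lower (Igkc) in WT cells, and none was called in cGAS-/- cells. The part of these cells in the Vnn3 levels was not tested. Each of the Vnn3 differences shares samples with another, so they are not independent of each other.

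**Figure D2:**
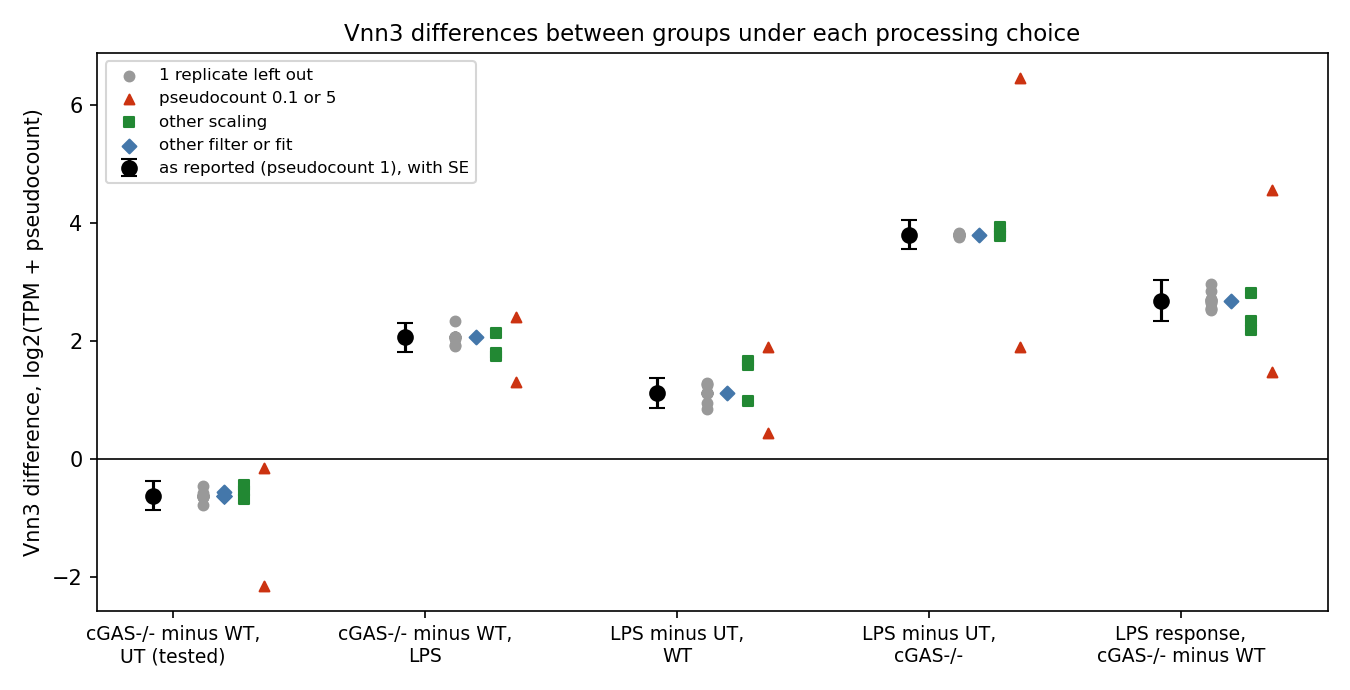
Difference of mean Vnn3 between groups on the log2(TPM + pseudocount) scale for 5 comparisons, with black points for the reported value and its SE and coloured points for each other setting. No setting turns a sign, which only the other scalings (green) could have done, as the groups do not overlap. The pseudocount (red) moves the values most, from 1.90 to 6.45 for LPS minus UT in cGAS-/- cells.

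The libraries differed in their totals, and this touches the WT LPS values. In 11 samples the TPM of all listed genes summed to 447189 to 503156, against 709802 in WT LPS replicate 3, where the ferritin pseudogene Fth-ps3 alone took 31.7% (6.24% to 17.7% in the others). After rescaling every sample to a common total, Vnn3 ran from 1.38 to 4.47 TPM in WT LPS, from 0.339 to 1.17 TPM in WT UT and from 13.5 to 14.2 TPM in cGAS-/- LPS cells, still without overlap. The median of all genes tested was shifted by -0.46 for LPS minus UT in WT cells and by -0.20 in cGAS-/- cells on the log2(TPM + 1) scale, and TMM factors moved these medians to -0.05 and -0.001. Vnn3 was then 1.58 and 3.92 higher with LPS. Cgas itself stood at 1.19 to 3.25 TPM in WT samples and 0.0703 to 0.291 TPM in cGAS-/- samples, so the genotype labels held.

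None of the genes around the vanins was called in any comparison. Within 300 kb of the vanin starts lie 18 other protein-coding genes, of which 2 were tested. All 15 Taar genes, receptors for trace amines on the far side of Vnn1, were at 0 TPM in all 12 samples. Slc18b1, a vesicular transporter gene before Vnn3, stayed under the filter, with 0.0112 to 0.662 TPM. Rps12, which encodes a ribosomal protein and starts at -64.2 kb from the Vnn3 start, held 26.2 to 119 TPM over the samples. Stx7, a syntaxin of late endosomes 298 kb beyond the Vnn3 start, held 22.7 to 45.4 TPM. Neither was called in any of the 4 comparisons (limma), with adjusted p = 0.76 for Rps12 and 0.566 for Stx7 between the genotypes with LPS. The difference of Stx7 there was 0.22 (SE 0.21) and that of Rps12 was 0.23 (SE 0.41), both on the log2(TPM + 1) scale.

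**Figure D3:**
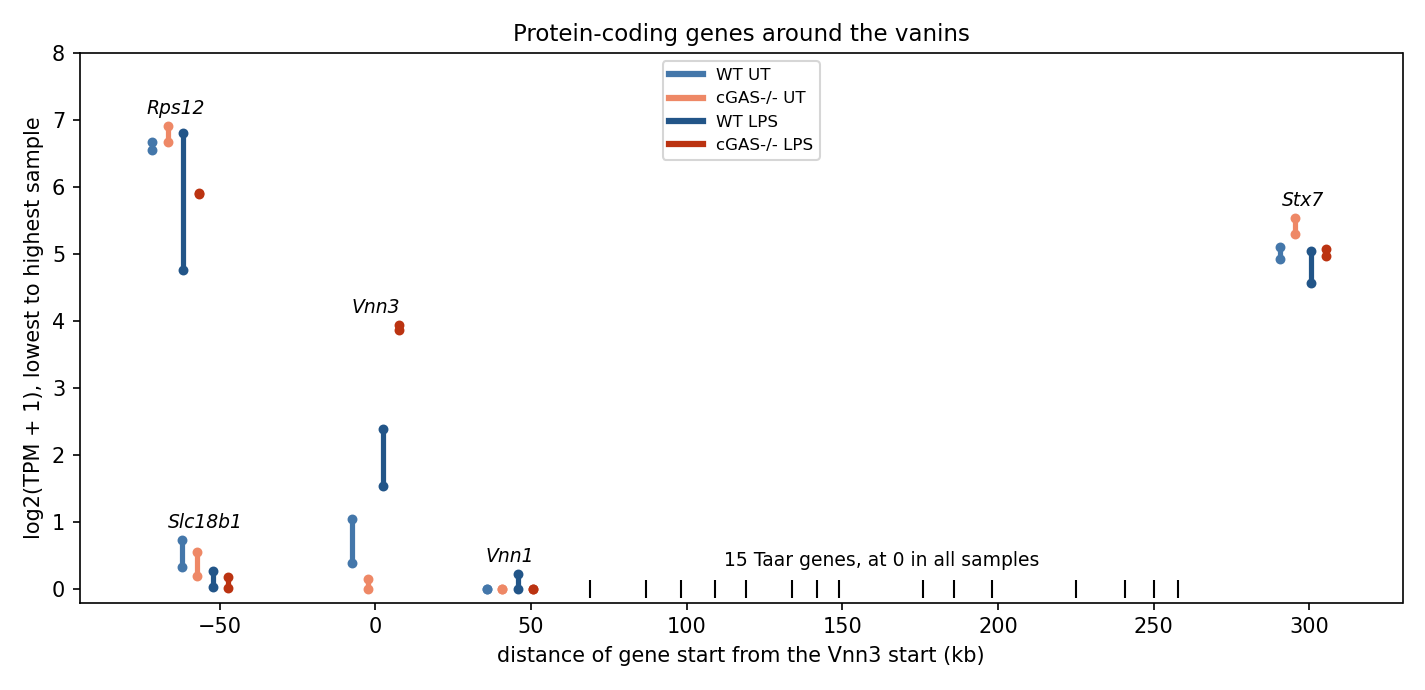
Levels of Vnn3, Vnn1 and the other protein-coding genes within 300 kb, on the log2(TPM + 1) scale, against the distance of each gene start from the Vnn3 start in kb. Lines join the lowest and highest of the 3 samples of a group and the groups are drawn side by side, and the 15 Taar genes (ticks) are at 0 in all samples.

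Some genes followed the levels of Vnn3 closely. Over the 12 samples, the 10 genes with the highest Pearson correlation of log2(TPM + 1) with Vnn3 had r of 0.971 to 0.991 among 11886 genes compared. The samples fall into 4 groups and share libraries with Vnn3, so the values describe the pattern over groups. First stood Adora2a, an adenosine receptor gene (r = 0.991), with mean levels of 0.252 TPM in WT UT, 0.0483 TPM in cGAS-/- UT, 1.32 TPM in WT LPS and 5.09 TPM in cGAS-/- LPS cells. Next came Gpr141, an orphan receptor gene (r = 0.987), at 1.71, 0.606, 3.17 and 11.9 TPM in the same order of groups. Both had the same order of group means as Vnn3, but at least one pair of their groups overlapped. Birc3, an inhibitor of apoptosis in TNF receptor signalling (r = 0.983), was at 7.73, 5.72, 16 and 34.6 TPM. Pilra, an inhibitory receptor of myeloid cells (r = 0.971), was at 3.97, 1.42, 25.4 and 84.7 TPM. Smpdl3b, a membrane-bound phosphodiesterase of macrophages (r = 0.973), was at 3.44, 3.04, 9.54 and 64.9 TPM, with overlapping UT groups. The other 5 were Agtrap, which encodes a protein that binds an angiotensin receptor, Kmt5a, a histone methyltransferase, Rnf24, Itgb8, an integrin subunit, and Agpat3, an acyltransferase of phospholipid synthesis.

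Birc3, Agtrap and Pilra were the 3 of these 10 in which the 4 groups stood in the order of Vnn3 without overlap. With Vnn3 included, 23 genes had that order, 0.193% of the genes tested. Among them, chosen here after their values were seen, were Icam1, the leukocyte adhesion molecule, Socs3, an inhibitor of cytokine signalling, and Batf, a transcription factor of the AP-1 group. Over the 9 samples outside cGAS-/- LPS, a choice made after seeing the data, the r of these 10 genes was 0.866 to 0.974, and 3 of them were among the first 10 and 6 among the first 100. By Spearman's rank correlation, 2 of the 10 were among the first 10, and likewise 2 without WT LPS replicate 3.

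**Figure D4:**
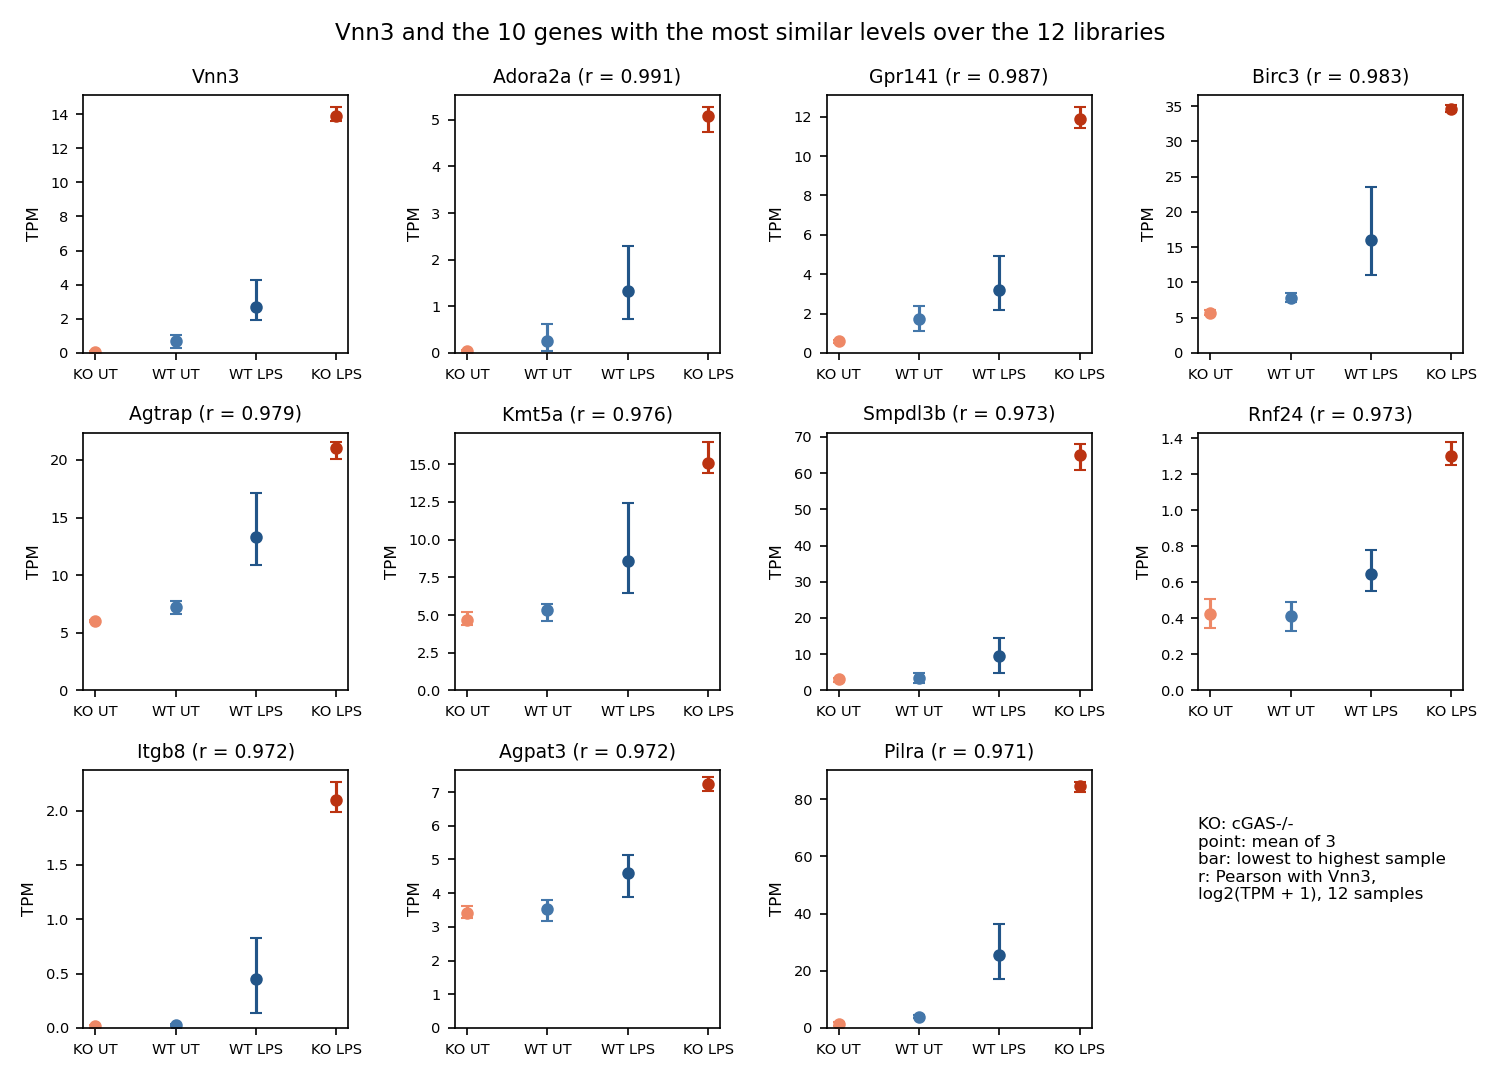
Mean TPM (points) with the lowest and highest of 3 samples (bars) in each group for Vnn3 and the 10 genes most correlated with it, each on its own linear axis from 0. KO stands for cGAS-/-, and in every panel the cGAS-/- LPS samples are the highest.

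Around the reaction of the vanins stand the enzymes and transporters of pantothenate, coenzyme A, cysteamine and thiols, a list of 35 genes taken by name. Of these, 30 were listed in the table, 25 were tested and 5 were under the filter, while Pank1, Nudt8, Csad, Btd and Nit2 were not analysed here. With LPS, 2 of the 25 were higher in cGAS-/- cells than in WT cells and none was lower, where 1.36% of all genes tested were called higher and 1.00% lower (limma, adjusted p under 0.05). In UT cells none of the 25 was called (limma), with 2 at an unadjusted p under 0.05, against 0.252% of all genes tested called higher and 1.58% lower. In WT cells, 2 rose and 7 fell with LPS, against 4.31% and 23.3% of all genes tested. In cGAS-/- cells, 3 rose and 3 fell with LPS, against 4.76% and 9.06%. The shares in WT cells, in which many genes fell, were thus near the background. None of these changes passed a log2 change of 2, the size asked for in the methods. The median difference over the 25 genes was 0.12 in UT cells and 0.35 with LPS between genotypes, and -0.55 in WT and -0.42 in cGAS-/- cells between LPS and UT, against -0.04, 0.20, -0.46 and -0.20 over all genes tested.

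Pantothenate uptake and coenzyme A synthesis had 9 genes on the list and 8 tested. Pank3, one of the pantothenate kinases that carry out the committed step, had the largest difference among them. It was at 20.5, 19.7 and 16.4 TPM in WT UT and 28, 28.5 and 30 TPM in cGAS-/- UT cells. With LPS, it was at 5.55, 10.9 and 5.88 TPM in WT and 18, 17.8 and 18.8 TPM in cGAS-/- cells. All WT LPS samples were thus under all other samples. Pank3 fell with LPS in WT cells by 1.28 on the log2(TPM + 1) scale (SE 0.25, limma adjusted p = 0.00415) and was 1.24 higher in cGAS-/- than in WT cells with LPS (SE 0.25, limma adjusted p = 0.0299). The first call was kept under 21 of 23 other settings and lost under TMM factors and with only the 6 samples compared. The second was kept under 10 of 23 and lost, among others, under the replicate block and the common total. In cGAS-/- cells, the difference of Pank3 with LPS was -0.64 (limma, adjusted p = 0.137), called under 5 of 23 settings. Between the genotypes in UT cells it was 0.59 (adjusted p = 0.537), called under 2 of 23. Pank2 and Pank4, the related kinases, were at 4.85 and 3.25 TPM on average in WT UT and at 3.53 and 2.63 TPM in cGAS-/- LPS cells, and Coasy, which completes the synthesis, at 5.79 and 3.7 TPM. None of these 3 was called in any comparison. In WT cells with LPS, all 3 were called lower without WT LPS replicate 2 (Pank2 -0.96, Pank4 -1.08 and Coasy -1.49), Pank4 also without replicate 1 (-1.05) and Coasy also without replicate 3 (-0.42). Slc5a6, the vitamin transporter that takes up pantothenate, fell by 0.55 in WT cells with LPS (SE 0.18, adjusted p = 0.0461). This call was kept under 3 of 23 settings and lost under the replicate block, TMM factors and quantile normalization. In cGAS-/- cells its difference with LPS was -0.51 (SE 0.18, limma adjusted p = 0.101), called under 3 of 23 settings. Dcakd, which resembles the last enzyme of the route, fell by 0.70 in cGAS-/- cells with LPS (SE 0.19, adjusted p = 0.0289), a call kept under 11 of 23 settings and lost under the replicate block, TMM factors and quantile normalization.

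Of the 8 genes of coenzyme A transport, breakdown and use, 6 were tested. In WT cells with LPS, 3 of them fell, where 23.3% of all genes tested did. Nudt7, a peroxisomal hydrolase of coenzyme A, fell by 1.43 (SE 0.37, limma adjusted p = 0.0157) and Slc25a16, a mitochondrial carrier, by 0.91 (SE 0.24, adjusted p = 0.0189), calls kept under 20 and 18 of 23 settings. In cGAS-/- cells their differences with LPS were -0.74 and -0.57, not called in the main fit but called under 3 and 4 of 23 settings. Whether the responses of the genotypes differed was not tested. Enpp1, an ectoenzyme that hydrolyses nucleotides including cGAMP and can cleave coenzyme A outside cells, was called lower with LPS in both genotypes. It was at 1.86, 2.34 and 1.75 TPM in WT UT and 2.29, 2.11 and 2.08 TPM in cGAS-/- UT cells. With LPS it was at 0.578, 0.586 and 0.441 TPM in WT and 0.136, 0.0733 and 0.0679 TPM in cGAS-/- cells. The decrease was 0.95 in WT (SE 0.14, limma adjusted p = 0.000838) and 1.53 in cGAS-/- cells (SE 0.14, adjusted p = 3.65e-05), with calls kept under 20 and 22 of 23 settings, and the cGAS-/- LPS samples were the lowest. Between the genotypes with LPS, the difference of Enpp1 was -0.49 and was not called, but it was called lower in cGAS-/- cells under 5 of 23 settings, among them TMM factors, quantile normalization and leaving out WT LPS replicate 2 (-0.47, limma adjusted p = 0.0292) or 3 (-0.54, adjusted p = 0.0319).

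The route from cysteamine had 5 genes, of which 3 were tested. Ado, the dioxygenase that turns cysteamine into hypotaurine, was at 18.2 ± 0.437 TPM in WT UT and 17.8 ± 1.81 TPM in cGAS-/- UT cells (SD, n = 3). With LPS it was at 7.1, 8.08 and 1.62 TPM in WT and 8.8, 8.71 and 8.71 TPM in cGAS-/- cells. Ado fell in WT cells by 1.74 (SE 0.39, limma adjusted p = 0.00839), a call kept under 22 of 23 settings. In cGAS-/- cells the difference was -0.95 (SE 0.39, adjusted p = 0.152), which did not pass. It passed under 5 of 23 settings, among them leaving out WT LPS replicate 3 (adjusted p = 6.41e-05) and the fit of the 6 compared samples alone (adjusted p = 0.000268), in which the call in WT cells was lost. A difference of Ado between the responses of the genotypes was not tested.

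Among the relatives of the vanins, enzymes with the nitrilase fold, 3 of 5 were tested. Upb1, the last enzyme of pyrimidine breakdown, was at 0.503, 0.519 and 0.65 TPM in WT UT and 0.194, 0.2 and 0.172 TPM in cGAS-/- UT cells. With LPS it was at 4.07, 2.31 and 8.26 TPM in WT and 2.68, 2.28 and 2.51 TPM in cGAS-/- cells. Upb1, like Vnn3, was higher with LPS in each genotype, by 1.79 in WT (SE 0.30, limma adjusted p = 0.00142) and 1.55 in cGAS-/- cells (SE 0.30, adjusted p = 0.00451). Each call was kept under 22 of 23 settings, the second being lost under TMM factors. With LPS, however, its genotype groups overlapped, and the difference of -0.63 was called only without WT LPS replicate 2 (-0.98, limma adjusted p = 0.012).

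Cysteine and glutathione genes numbered 8, with 5 tested. Slc7a11, the cystine importer, was at 1.23, 0.668 and 0.687 TPM in WT UT and 0.707, 1.26 and 1.17 TPM in cGAS-/- UT cells. With LPS it was at 2.64, 1.49 and 1.18 TPM in WT and 6.19, 5.25 and 5.12 TPM in cGAS-/- cells. The cGAS-/- LPS samples were the highest, as for Vnn3. Slc7a11 was 1.27 higher in cGAS-/- than in WT cells with LPS (SE 0.23, limma adjusted p = 0.0172) and rose by 1.68 in cGAS-/- cells with LPS (SE 0.23, adjusted p = 0.000489). The first call was kept under 17 of 23 other settings and the second under all 23. In WT cells, the difference of Slc7a11 with LPS was 0.55 (SE 0.23, limma adjusted p = 0.0911), which did not pass. It was called higher under 3 of 23 settings, among them TMM factors (1.005, adjusted p = 0.012). Gsr, glutathione reductase, rose by 1.21 in WT (SE 0.29, adjusted p = 0.0111) and 1.78 in cGAS-/- cells (SE 0.29, adjusted p = 0.00155), calls kept under 22 and 23 of 23 settings. Gclc, the catalytic subunit of the first enzyme of glutathione synthesis, fell by 1.15 in cGAS-/- cells (SE 0.32, adjusted p = 0.0358). This call was kept under 11 of 23 settings and lost under TMM factors and quantile normalization. In WT cells, the difference of Gclc was -0.37 (limma, adjusted p = 0.398). It was called lower there under sample weights and without WT LPS replicate 3 (-0.80, adjusted p = 0.000965). Gss, the second enzyme, fell by 0.74 in WT cells (SE 0.23, adjusted p = 0.038), a call kept under 4 of 23 settings and lost under the replicate block, TMM factors and quantile normalization. Gclm, the regulatory partner of Gclc, was spread widely, with 12.7, 17.6 and 0.908 TPM in WT LPS and 25.6, 26.9 and 24.9 TPM in cGAS-/- LPS cells, and its difference of 1.77 did not pass (SE 0.65, limma adjusted p = 0.194). It passed without WT LPS replicate 3, at 0.75 (adjusted p = 0.0148), and without WT LPS replicate 2, at 2.39 (adjusted p = 0.0213), so single libraries decide both the value and the call. In UT cells, Gclm was at 24.9, 20.9 and 21.6 TPM in WT and 36.9, 42.5 and 44.8 TPM in cGAS-/- cells. That difference of 0.85 (SE 0.65) was not called in the main fit. It was called under 3 of 23 settings, among them the 6 compared samples alone (limma, adjusted p = 0.00635).

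**Figure D5:**
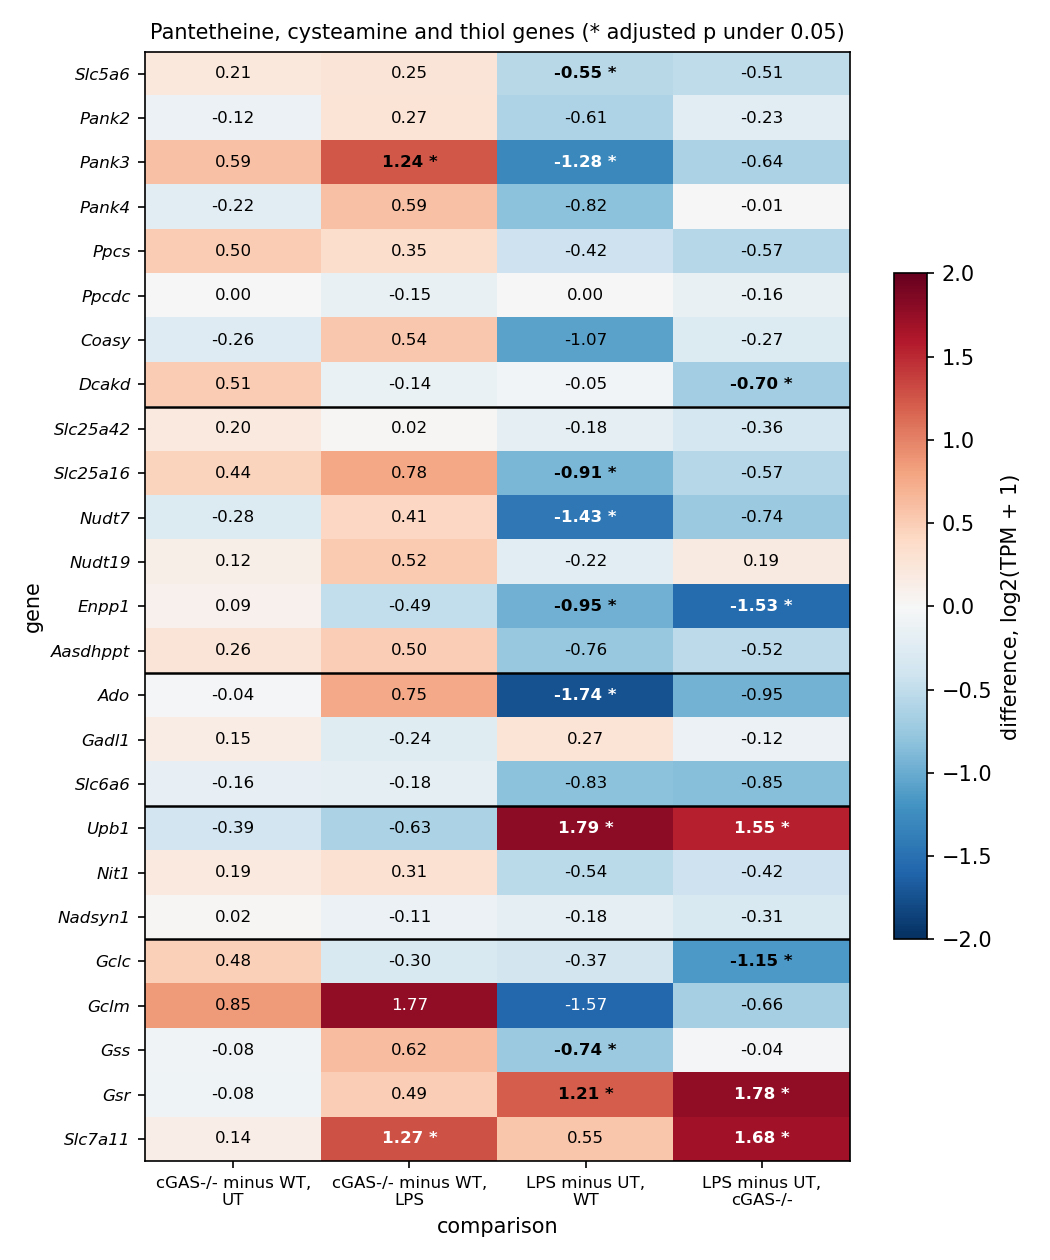
Differences on the log2(TPM + 1) scale (colour and printed value) for the 25 genes tested, in rows grouped by role, in the 4 comparisons in columns. Asterisks mark an adjusted p under 0.05, with 0, 2, 9 and 6 marked genes from the left column to the right, counts that change with the settings and stand beside the shares of all genes in the text.

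The pathway calls that involve WT LPS cells rest on a spread shared by all groups, and that group was the widest. With only the 6 samples compared in the fit, none of the 25 was called between genotypes with LPS or in WT cells, where 0.0421% and 6.02% of all genes tested were called in either direction. In that fit, 19 of 25 were called for LPS minus UT in cGAS-/- cells, where 44.6% of all genes were, and 6 of 25 between genotypes in UT cells, where 10.4% were.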

How the data were processed

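Total RNA of BMDMs was sequenced in 12 libraries, 3 a group by the sample labels. The authors trimmed reads with fastp, mapped them with STAR to GRCm39 and quantified transcripts with kallisto. In the table that the authors deposited, each value is read as a mean TPM across the transcripts sharing a symbol, a unit inferred from the values. The highest number of digits was 7 for Vnn1, as a mean over 2 transcripts can give, and 6 for Vnn3, as for 1 transcript. TPM keeps no depth, so the number of reads is unknown and no interval for counting error is given.

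Genes with at least 1 TPM in at least 3 of 12 samples, after rescaling each sample to 1000000 for this filter only, entered the fit, 11887 in all. The scale was log2(TPM + 1). Limma 3.58.1 in R 4.3.3 was fitted to all 12 samples with 4 group means and a variance trend, and tested on simulated data first. p-values were adjusted by Benjamini-Hochberg over all genes tested, and genes were called at 0.05. Exons were read from the GENCODE annotation of GRCm39. Genes named are both vanins, Cgas, protein-coding genes within 300 kb, the 10 genes most correlated with Vnn3, pathway genes that were called or catalyse committed steps, and cell type markers. Fth-ps3, Icam1, Socs3 and Batf were picked after their values were seen. Vanins, lists and tests were chosen with earlier results of these data known. Alternatives were other pseudocounts, scalings, filters and fits, a replicate block, and leaving out each replicate. The methods name a NextSeq 500 sequencer, while the labels name a HiSeq and an extraction step for neutrophils.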

Additional observations from a re-analysis of the deposited data

Results flagged for a closer look

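The difference of Vnn3 between the genotypes had the opposite direction in UT cells and with LPS. All 3 cGAS-/- UT samples lay under all WT UT samples, as for 18.4% of the genes tested. All 3 cGAS-/- LPS samples lay above all WT LPS samples, as for 12.6%. The difference in UT cells did not pass the test (limma, adjusted p = 0.468). On the log2(TPM + 1) scale, the genotype difference with LPS was 2.68 larger than that in UT cells (SE 0.35), and 59 of 11887 genes had a larger value. This difference was not tested, since the gene was chosen on its level with LPS.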

How the results depend on the processing

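Over all settings no direction of Vnn3 was turned. Since the groups did not overlap, only the other scalings could have turned one. With 1 replicate left out, the Vnn3 difference was -0.79 to -0.46 in UT cells, 1.91 to 2.34 with LPS, 0.84 to 1.28 in WT cells, 3.76 to 3.83 in cGAS-/- cells and 2.52 to 2.96 for the response. Sample weights gave -0.57 in UT cells, past the threshold. In UT cells, a pseudocount of 0.1 gave -2.15 (limma, adjusted p = 0.0763) and one of 5 gave -0.16 (adjusted p = 0.958). A pseudocount of 5 gave 1.30 with LPS, 0.43 in WT cells, 1.90 in cGAS-/- cells and 1.47 for the response, and one of 0.1 gave 1.89, 6.45 and 4.56 in the last 3. Quantile normalization gave 1.65 in WT cells and 2.18 for the response, and TMM factors gave 3.92 in cGAS-/- cells. The larger spread of values at a low pseudocount follows from its construction.

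The number of pathway genes called was less stable. In UT cells (0 called), sample weights and the 6 compared samples alone each gave 6, and leaving out 1 replicate gave 0 to 3, with 3 without WT LPS replicate 3. With LPS (2 called), the common total gave 1, quantile normalization 4, sample weights 1 and the 6 samples alone 0, and leaving out 1 replicate gave 0 (each cGAS-/- LPS replicate) to 9 (WT LPS replicate 2), with 5 when WT LPS replicate 3 was dropped and 1 for WT LPS replicate 1 or any UT sample. In WT cells (9 called), the 6 samples alone gave 0, and leaving out 1 replicate gave 5 (WT UT replicate 2) to 15 (WT LPS replicate 2). In cGAS-/- cells (6 called), TMM factors gave 3, sample weights and the 6 samples alone each 19, and leaving out 1 replicate gave 4 to 15 (WT LPS replicate 3). The cause of these changes in the counts was not tested.

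With the replicate number as a replicate block, the count with LPS was 1, the Vnn3 difference in UT cells was -0.62 (limma, adjusted p = 0.61), and the other counts stayed within 1.5 times. Deviations of the 18 same-numbered pairs correlated at -0.031 to 0.038, so the numbers share only a name. The unknown depth limits what the low Vnn3 values in UT cells and the listed zeros of Vnn1 can show.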
